A study of Mus musculus with 5 samples.

Results

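The respiratory chain is examined here as a set of 109 mouse genes, chosen by gene symbol alone from the 30907 mouse genes in the count tables. Of these, 13 are encoded in mitochondrial DNA (symbols beginning with mt-Nd, mt-Co, mt-Cytb or mt-Atp) and 96 in the nucleus (symbols beginning with Ndufa, Ndufb, Ndufc, Ndufs, Ndufv, Sdh, Uqcr, Cox4 to Cox8 or Atp5). The nuclear members comprised 36 subunits of complex I, 4 of complex II, 8 of complex III, 20 of complex IV and 15 of complex V, with 8 assembly factors of complex I, 4 of complex II and Atp5s, a protein associated with complex V. The mitochondrial members comprised 7 subunits of complex I, 1 of complex III, 3 of complex IV and 2 of complex V. At least 1 UMI was counted for 106 members. The 3 at 0 in every library were Cox7b2, Cox8b and Cox8c, paralogues known from testis or muscle. UMIs are the molecular tags that stand for single captured RNA molecules.

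The study transplanted iBCs, basal cells derived from mouse embryonic stem cells, into tracheas injured with 2% polidocanol 5 hours earlier. Donor-derived (GFP+) and endogenous (GFP-) live cells were sorted from 1 recipient at day 40 and 1 at day 56 after transplantation. A control trachea came from 1 mouse without injury or transplantation, and all recipients and the control were wild-type mice on a 129X1/S1 background. The 5 libraries are therefore 2 donor-derived, 2 endogenous and 1 control, each with 1 animal, and the replicates of a group also differ in the day. The donor cells carry a GFP reporter and have passed through differentiation in culture, which the endogenous cells have not, so cell origin, culture history and time spent in the airway cannot be told apart in this design.

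The respiratory chain passes electrons from NADH (complex I) and succinate (complex II) through ubiquinone, complex III and cytochrome c to oxygen (complex IV), and the proton gradient built on the way drives ATP synthase (complex V). Every complex except complex II is assembled from subunits of both genomes. The mitochondrial genes are read by a dedicated polymerase from a small circular chromosome, as long precursors cut into single messages, and the nuclear ones one by one from many chromosomes. In the airway, multiciliated cells spend ATP on ciliary beating, secretory cells on protein export, and basal cells are the resident stem cells.

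The sequences below show where the counts of neighbouring mitochondrial genes touch, and the upstream regions of the nuclear members that differed most. On the mitochondrial chromosome (GRCm38, GENCODE M21 annotation, plus strand) mt-Atp8 and mt-Atp6 overlap by 43 bases (7927 to 7969) and mt-Nd4l and mt-Nd4 by 7 bases (10167 to 10173). Each pair is known to share 1 message, so a tag near the overlap cannot be assigned to a single gene of the pair. Capitals mark the start codon of the downstream gene at chrM:7915-7981 and chrM:10155-10185.
mt-Atp8/mt-Atp6: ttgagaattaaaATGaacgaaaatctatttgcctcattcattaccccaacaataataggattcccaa
mt-Nd4l/mt-Nd4: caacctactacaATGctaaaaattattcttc
The gene mt-Nd6 lies on the opposite strand from the other 12 and overlaps the end of mt-Nd5 by 14 of its 519 bases. The sources used here do not say whether strand was used in counting, so mt-Nd6 counts are uncertain.

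Among the nuclear members, 78 of 96 had an upstream sequence in the RefSeq table (GRCm38.p6, 250 bases before the annotated start). The letters GCGCA, any base and GCGC in a row, the core bound by NRF1, a known regulator of respiratory genes, were found on either strand in 14 of the 78 (17.9%), against 1144 of 27025 genes (4.23%). The letters CCGGAAG, the core bound by ETS factors such as GABP, were found in 16 of the 78 (20.5%), against 2115 of 27025 (7.83%). The upstream sequences of the 3 nuclear members of at least 20 CPM with the largest differences in basal-like cells, the complex I subunits Ndufb6 and Ndufc2 and the complex IV subunit Ndufa4, are printed 5′ to 3′ on the strand of the gene. Capitals mark the single ETS core in Ndufb6, which reads CCGGAAG on the other strand. Neither set of letters was found in the windows of Ndufc2 and Ndufa4. The RefSeq start of Ndufa4 lies inside its GENCODE gene, which begins at 11907497, so the last bases printed for it fall within that gene. These matches are descriptions of letters only.
Ndufb6 (chr4:40279422-40279671, minus strand): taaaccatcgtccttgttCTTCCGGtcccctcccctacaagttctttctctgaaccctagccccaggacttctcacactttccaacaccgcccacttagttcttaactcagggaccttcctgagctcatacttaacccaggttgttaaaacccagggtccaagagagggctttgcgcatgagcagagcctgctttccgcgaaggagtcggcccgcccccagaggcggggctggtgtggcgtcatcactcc
Ndufc2 (chr7:97399753-97400002, plus strand): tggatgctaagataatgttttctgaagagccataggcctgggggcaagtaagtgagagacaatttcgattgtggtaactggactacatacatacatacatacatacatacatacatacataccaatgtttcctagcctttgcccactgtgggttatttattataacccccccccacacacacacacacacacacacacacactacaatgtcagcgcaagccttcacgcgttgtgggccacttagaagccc
Ndufa4 (chr6:11907451-11907700, minus strand): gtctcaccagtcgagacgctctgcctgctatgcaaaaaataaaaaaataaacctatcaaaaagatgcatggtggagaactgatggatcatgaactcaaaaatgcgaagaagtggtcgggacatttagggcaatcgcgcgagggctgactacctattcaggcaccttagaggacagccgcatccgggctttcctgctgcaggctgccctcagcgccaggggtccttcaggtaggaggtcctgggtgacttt

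Depth ranged between 16580940 and 25569394 UMIs per library, and 6554 of 6832 barcodes were kept as cells. In the control library 192 barcodes held more than 10% human-mapped UMIs and were left out, which left 7493284 UMIs there. Pairs of libraries shared 0 to 2 barcodes. Cells were clustered without the 109 members among the variable genes, and clusters were called basal-like, secretory-like or ciliated-like from marker lists. In the donor-derived libraries at day 40 and 56 these classes held 630 and 416, 240 and 400, and 41 and 117 cells. In the endogenous libraries they held 346 and 233, 240 and 180, and 231 and 194 cells, and in the control 69, 242 and 154 cells. Donor-derived and resident (endogenous and control) cells of a class fell mostly into different clusters: basal-like into clusters 5, 8 and 9 against cluster 2, secretory-like into cluster 3 against cluster 1, and ciliated-like into cluster 15 against clusters 6 and 11. Differences between origins below are therefore also differences between those clusters. Cluster 11 had the lowest depth of the ciliated-like clusters. Its median cell had 0.844 times the median depth of its library, against 1.18 in cluster 6, 1.15 in cluster 15 and 0.81 in cluster 0. It held 8 and 5 donor-derived, 106 and 76 endogenous and 23 control cells, and ciliated-like results are given with and without it. Cluster 0 (93 and 683 donor-derived cells, 0 resident) scored closest to basal markers, with 10 of them detected. It stayed unnamed because its 10 leading genes held 0 basal markers and 1 marker of another type.

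The ratio of mitochondrial to nuclear messages was lower in donor-derived than in endogenous cells of the same recipient in each of the 3 classes, but the 2 genomes had unequal parts in it. In basal-like cells the mitochondrial share of UMIs was 0.612 and 0.767 times the endogenous one at day 40 and day 56, and the nuclear share 1.07 and 1.02 times. In secretory-like cells the mitochondrial share was 0.800 and 0.993 times and the nuclear share 1.25 and 1.30 times the endogenous one. In ciliated-like cells these were 0.674 and 0.912 times and 1.23 and 1.28 times. In basal-like cells the 13 mitochondrial genes held 3.48% and 3.85% of UMIs in donor-derived cells at day 40 and day 56. They held 5.68% and 5.02% in endogenous cells and 5.98% in control cells. The 96 nuclear members held 2.03% and 1.98% in donor-derived, 1.89% and 1.94% in endogenous and 1.77% in control basal-like cells. The ratio of mitochondrial to nuclear UMIs, which does not depend on how libraries are scaled, was 1.72 and 1.95 in donor-derived cells, against 3.002 and 2.59 in endogenous cells, with 3.37 in control cells. Both donor-derived libraries lay below both endogenous ones, and the control lay above all 4. The mean ratio was 1.83 ± 0.164 in donor-derived and 2.80 ± 0.292 in endogenous basal-like cells (SD, n = 2 each). With 2 libraries against 2 an exact two-sided permutation test cannot give a p below 0.333, so the ratios are given as values. Counting error is small beside these gaps: the exact binomial 95% interval of a share was at most 0.0574 percentage points to either side for mitochondrial members.

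In secretory-like cells the ratio was 2.65 and 2.98 in donor-derived, 4.13 and 3.92 in endogenous and 4.78 in control cells. Here the mitochondrial share was closer between origins, at 4.10% and 4.69% in donor-derived, 5.12% and 4.72% in endogenous and 5.91% in control cells. The nuclear share was 1.55% and 1.57% in donor-derived, 1.24% and 1.21% in endogenous and 1.24% in control cells. Secretory products take up part of this denominator: markers of the secretory list summed to 299041 and 333317 CPM (UMIs per 1000000) in donor-derived, 403434 and 436372 in endogenous and 427117 in control secretory-like cells, and their part in the shares was not tested. In ciliated-like cells the ratio was 2.196 and 2.59 in donor-derived, 4.0 and 3.63 in endogenous and 3.15 in control cells. Without cluster 11 it was 2.07 and 2.52 in donor-derived, 2.65 and 2.68 in endogenous and 2.97 in control cells. The donor-derived minus endogenous gap in ciliated-like cells was thus -0.371 without cluster 11 and -1.42 with it, and the mitochondrial shares alone overlapped without it (4.37% and 5.60% in donor-derived, 5.19% and 5.37% in endogenous cells). Cluster 11 itself had a ratio of 8.20 and 6.52 in endogenous cells and 3.94 in control cells.

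**Figure D1:**
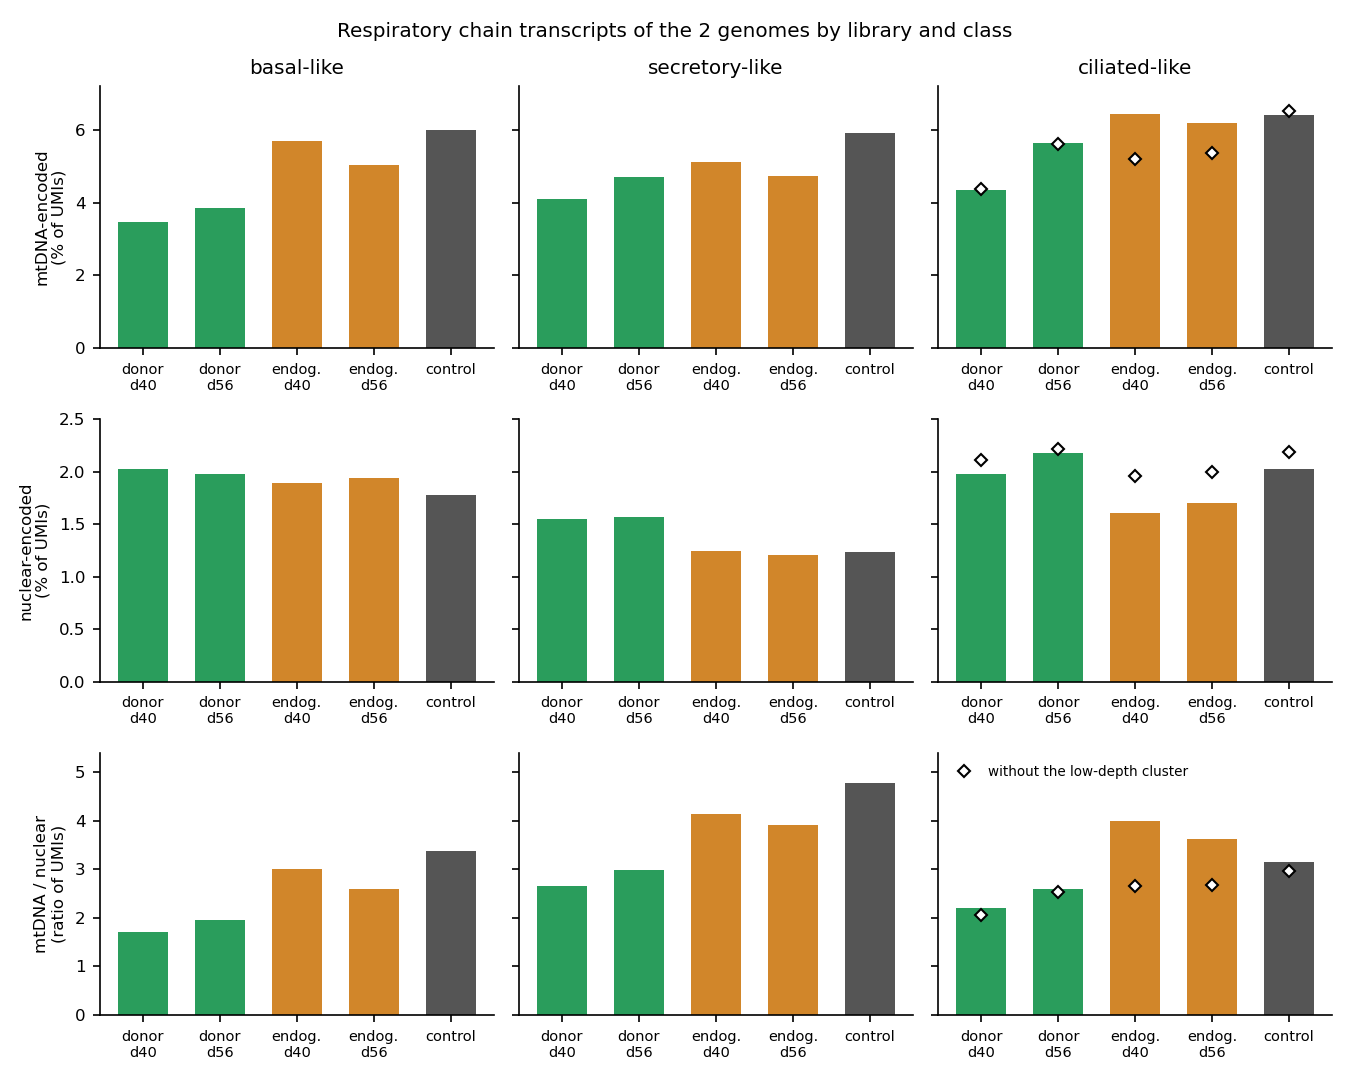
Share of UMIs in mitochondrial-encoded members (percent), share in nuclear-encoded members (percent) and their ratio, for each library in the basal-like, secretory-like and ciliated-like classes. Each bar is 1 library, and the open diamonds give the ciliated-like values without cluster 11, labelled as the low-depth cluster. The donor-derived ratios lie below the endogenous ratios in all 3 classes, between 1.72 and 2.98 in donor-derived and between 2.59 and 4.13 in endogenous cells.

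The gap was present in the libraries of each recipient taken alone. The donor-derived ratio divided by the endogenous ratio was 0.572 at day 40 and 0.752 at day 56 in basal-like cells, 0.642 and 0.762 in secretory-like cells, and 0.549 and 0.712 in ciliated-like cells (0.780 and 0.941 without cluster 11). Outside the 3 classes, some clusters were called hillock-like, after a squamous-leaning airway cell. Their ratios were 2.03 and 2.19 in donor-derived and 2.68 and 2.88 in endogenous libraries. Here too the origins fell into different clusters. Of donor-derived cells 410 of 414 and 70 of 72 lay in cluster 4, which had 1 hillock marker (Ecm1) among its 10 leading genes. Of endogenous cells 77 of 79 and 103 of 105 lay in cluster 12, whose leading genes included Krt6a, Krt13 and Krt4. These clusters are thus not shown to be the same cell type. The unnamed donor-derived cluster 0 had 1.94 and 2.01. Tuft-like cells reached 20 cells in the endogenous libraries only, with 2.81 and 2.62.

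Taken per cell, the median ratio of both donor-derived libraries lay below that of both endogenous libraries in each class, but overlapped in ciliated-like cells without cluster 11 (1.99 and 2.58 in donor-derived, 2.46 and 2.604 in endogenous cells). The median mitochondrial share did not separate the origins in secretory-like cells, at 3.83% and 4.45% in donor-derived, 4.76% and 4.30% in endogenous and 5.79% in control cells. The median basal-like cell had 380 and 394 mitochondrial-member UMIs in donor-derived, 560.5 and 549 in endogenous and 525 in control libraries, and 224 and 203 nuclear-member UMIs in donor-derived, 186 and 205 in endogenous and 147 in control libraries. Median total UMIs of basal-like cells were 11099 and 10141 in donor-derived, 9992 and 10820 in endogenous and 8678 in control libraries. In secretory-like cells depth moved with origin, with medians of 14827 and 16464.5 UMIs in donor-derived, 21852.5 and 27465.5 in endogenous and 15119 in control libraries. With each secretory-like cell thinned to 5000 UMIs the ratio was 3.08 and 3.52 in donor-derived, 4.94 and 5.37 in endogenous and 5.09 in control libraries. This left out 8 and 11 shallower donor-derived, 10 and 0 endogenous and 0 control cells. Thinned cells all weigh the same, whereas ratios of summed UMIs weigh cells by their depth. Thinning leaves the expected shares of a cell unchanged, so it does not test an effect of depth. Cells with more than 10% mitochondrial UMIs were few among basal-like cells (0.635% and 0.240% in the donor-derived libraries, 1.16% and 0.429% in endogenous cells, 1.45% in the control). Among secretory-like cells they made up 5.83% and 10.5% in the donor-derived libraries, 16.7% and 17.2% in endogenous cells, and 9.50% in the control. Among ciliated-like cells the shares were 2.44% and 5.13% in the donor-derived libraries, 24.2% and 19.6% in endogenous cells, and 1.95% in the control. Without cluster 11 these shares were 0% and 3.57% in the donor-derived libraries, 2.40% and 3.39% in endogenous cells, and 0.763% in the control. A high mitochondrial share is also a usual sign of damaged cells. With cells limited to 10% mitochondrial UMIs, the donor-derived minus endogenous gap of the ratio was -0.756 in secretory-like and -0.700 in ciliated-like cells, against -1.21 and -1.42 at the 20% limit. Markers of other cell types differed too. In basal-like cells the 14 immune markers summed to 1216 and 909 CPM in donor-derived, 359 and 496 in endogenous and 12 in control libraries, with 8 and 6, 4 and 5, and 11 of the 14 at 0. The pan-leukocyte gene Ptprc was at 0 in both donor-derived libraries. The 8 stromal markers summed to 425 and 377 CPM in donor-derived, 668 and 771 in endogenous and 711 in control basal-like cells, with 6 and 6, 4 and 4, and 7 at 0, among them Col1a1 and Pdgfra in all 5. In secretory-like cells the immune markers summed to 992 and 543 CPM in donor-derived, 4762 and 9993 in endogenous and 2992 in control libraries, with 9 and 10, 7 and 5, and 9 at 0. In ciliated-like cells they summed to 2517 and 779 CPM in donor-derived, 2229 and 4438 in endogenous and 1841 in control libraries, with 9 and 11, 5 and 0, and 9 at 0. Such sums can rest on few genes: the 711 CPM of stromal markers in control basal-like cells came from Dcn alone. Of the immune markers, Lyz2 was among the 10 leading genes of the resident secretory-like cluster 1, and H2-Aa is also expressed by airway epithelium. The part of these markers in the results was not tested.

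Gene by gene, the mitochondrial messages were lower in donor-derived basal-like cells across every complex they serve. Levels are given from here on as CPM on 1 TMM scale over all libraries and classes. Log2 fold changes (donor-derived over endogenous), standard errors (SE) and adjusted p are from edgeR's quasi-likelihood test within a class, with Benjamini-Hochberg adjustment over all genes tested and a threshold of 0.05. The p measures the spread between 2 libraries of each group, moderated over genes. In basal-like cells 17.3% of 10984 genes passed, 8.6% higher and 8.74% lower. Of the 13 mitochondrial members 12 fell and none rose, with a median log2 fold change of -0.74 (range -0.996 to -0.45), against a median of 0.01 over all genes tested. Both donor-derived libraries lay below both endogenous libraries for all 13. With 2 libraries per group such separation was common among nuclear members too: of 89, 38 lay below in the same way and 13 above. The share of all genes tested that separated so is not given here, so these counts are descriptions only. The 13 come from shared precursors and are not independent of each other.

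The complex I subunit mt-Nd2 had 1985 and 2410 CPM in donor-derived basal-like cells, against 4470 and 4089 in endogenous cells, with 4815 in control cells. It had the largest fall of the 13 in that class (log2 fold change -0.996, SE 0.13, adjusted p = 0.00071). mt-Nd5, the proton-pumping subunit at the far end of the membrane arm, had 393 and 409 CPM in donor-derived, 778 and 672 in endogenous and 781 in control cells (-0.89, adjusted p = 0.00145). The groups did not overlap for either gene, and the control was the highest library for both. The complex I subunits mt-Nd3, mt-Nd4 and mt-Nd4l fell by 0.82, 0.78 and 0.74 on the log2 scale. mt-Nd1 had the smallest fall that passed, with 1805 and 2008 CPM in donor-derived, 2593 and 2477 in endogenous and 2474 in control cells (-0.45, SE 0.11, adjusted p = 0.0248). For mt-Nd6 the values were 28.2 and 27.9 CPM in donor-derived, 46.9 and 29.8 in endogenous and 50.9 in control cells, and its log2 fold change of -0.50 did not pass (adjusted p = 0.171), though it did with the recipient as a block (adjusted p = 0.0093).

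mt-Cytb, the only mitochondrial subunit of complex III, had 3202 and 3663 CPM in donor-derived, 5939 and 5203 in endogenous and 5329 in control basal-like cells (-0.73, adjusted p = 0.00272). mt-Co1, which holds the oxygen-reducing centre of complex IV, had 4652 and 4729 CPM in donor-derived, 7775 and 6920 in endogenous and 7734 in control cells (-0.68, adjusted p = 0.00237). The other core subunits of complex IV, mt-Co2 and mt-Co3, fell by 0.55 and 0.60 on the log2 scale. Among complex V subunits, mt-Atp6, part of the proton channel, had 6463 and 7472 CPM in donor-derived, 12427 and 10256 in endogenous and 11014 in control cells (-0.74, adjusted p = 0.00338). Its overlapping partner mt-Atp8 fell by 0.86. Leaving out the endogenous day 40 library left 4 of the 13 past the threshold in basal-like cells, and leaving out the endogenous day 56 library left 8.

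**Figure D2:**
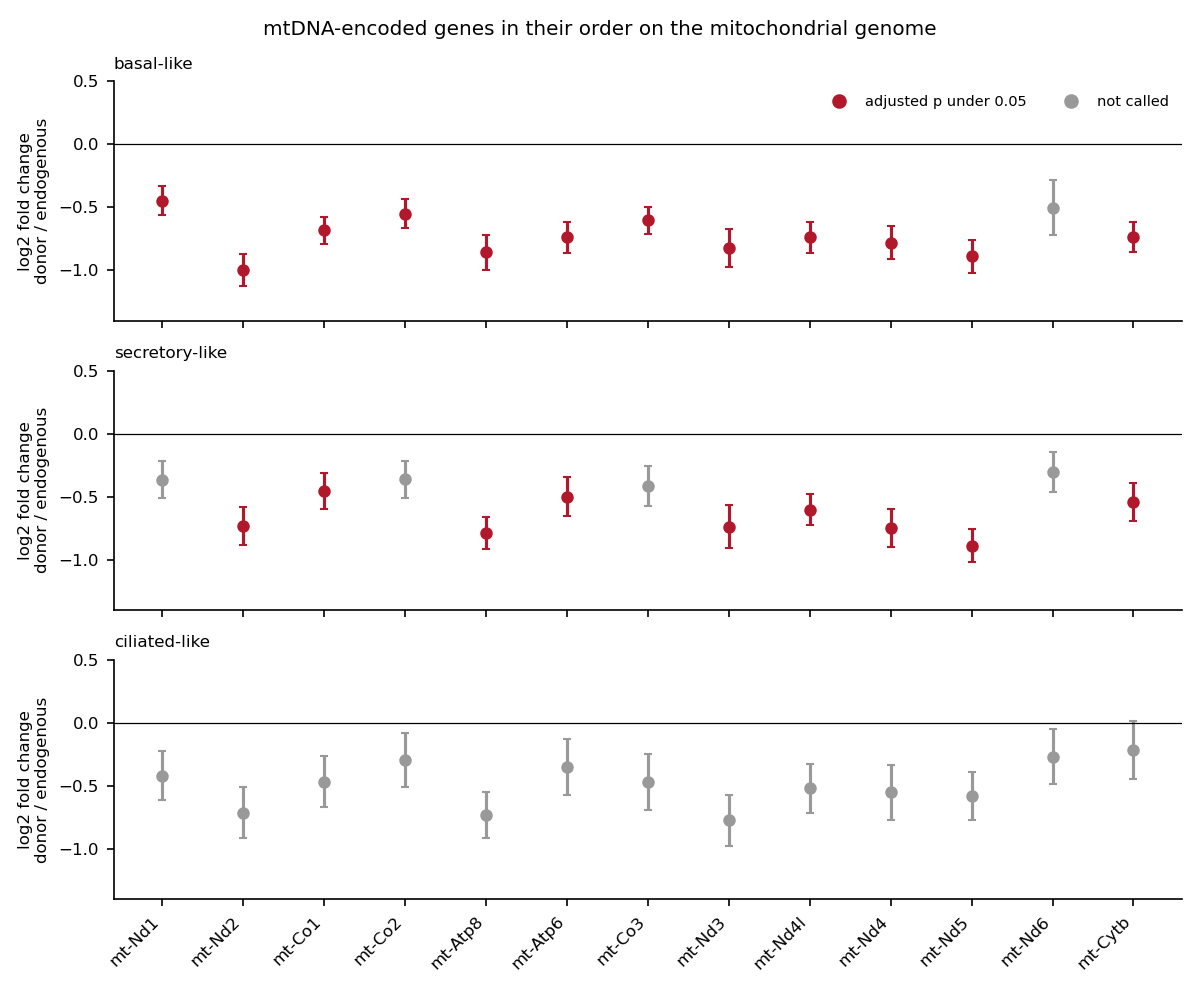
Log2 fold change, donor-derived over endogenous, of each of the 13 mitochondrial-encoded genes in their order on the mitochondrial genome, with 1 panel for each class. Points are the estimates from edgeR, bars are 1 SE to either side, and red points passed the adjusted threshold of 0.05. All 13 points lie below 0 in every panel, and 12 passed in basal-like, 9 in secretory-like and 0 in ciliated-like cells.

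In secretory-like cells 9 of the 13 mitochondrial members fell and none rose, where 17.2% of 10390 genes passed (7.5% higher, 9.75% lower). Their median log2 fold change was -0.54, against 0.00 over all genes tested. mt-Nd2 had 4631 and 5788 CPM in donor-derived, 8764 and 8096 in endogenous and 12577 in control cells (-0.73, SE 0.15, adjusted p = 0.00171). mt-Nd5 fell furthest, with 818 and 899 CPM in donor-derived, 1628 and 1470 in endogenous and 2428 in control cells (-0.89, adjusted p = 7.24e-05). Both donor-derived libraries lay below both endogenous libraries for all 13, whereas of 89 nuclear members 20 lay below in the same way and 25 above. These counts too are descriptions, without the share over all genes tested. With the recipient as a block 6 of the 9 passed, and mt-Co1, mt-Atp6 and mt-Cytb did not (adjusted p = 0.126, 0.121 and 0.0706). mt-Co1 fell less, with 8487 and 8974 CPM in donor-derived, 11903 and 11494 in endogenous and 14385 in control cells (-0.46, adjusted p = 0.0332). The 4 that did not pass were mt-Nd1, mt-Co2, mt-Co3 and mt-Nd6, with adjusted p between 0.0884 and 0.224. When libraries were scaled by library size alone, which moved the median of all genes to 0.34, 4 of the 13 passed, and mt-Nd6 turned to a log2 fold change of 0.04. Leaving out the endogenous day 40 or day 56 library left 2 or 4.

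In ciliated-like cells all 13 log2 fold changes were negative (median -0.47), but none passed edgeR's adjusted threshold, with adjusted p between 0.0678 and 0.661. Of the 13, 7 had an unadjusted p under 0.05, and DESeq2 called 2. Only 3.85% of 10513 genes passed in this class (1.92% higher, 1.93% lower). mt-Nd2 had 3337 and 3940 CPM in donor-derived, 6010 and 5717 in endogenous and 5191 in control cells (-0.71, adjusted p = 0.0966). mt-Cytb had 3474 and 5182 CPM in donor-derived, 4954 and 4912 in endogenous and 5410 in control cells and was the 1 mitochondrial member whose groups overlapped. Of 89 nuclear members, 46 had both donor-derived libraries above both endogenous libraries and 6 below, again without the share over all genes tested. Without cluster 11, 10 of the 13 were negative and 3 positive (mt-Co2, mt-Nd6 and mt-Cytb at 0.05, 0.27 and 0.10), with a median of -0.23. Without the donor-derived day 40 library 6 of the 13 passed, and without the donor-derived day 56 library 12.

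The messages did not fall in equal proportion. As a share of all mitochondrial-member UMIs, mt-Nd2 held 6.22% and 6.81% in donor-derived and 7.91% and 8.28% in endogenous basal-like cells, 8.34% and 8.46% against 9.94% and 9.66% in secretory-like cells, and 8.95% and 8.10% against 10.3% and 10.2% in ciliated-like cells. mt-Co2 moved the other way, with 15.1% and 14.5% in donor-derived and 13.5% and 13.3% in endogenous basal-like cells, 15.8% and 15.1% against 13.98% and 13.9% in secretory-like cells, and 13.4% and 13.4% against 12.4% and 11.9% in ciliated-like cells. The shares of mt-Atp8, mt-Nd4 and mt-Nd5 were also lower in both donor-derived libraries than in both endogenous libraries in all 3 classes.

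Few nuclear members differed between the origins on the TMM scale. Of 89 tested in basal-like cells, 2 rose and 3 fell, with a median log2 fold change of -0.12. In secretory-like cells 2 rose and 1 fell (median -0.01), and in ciliated-like cells 1 rose and 0 fell (median 0.19). These shares, 5.62%, 3.37% and 1.12% of the nuclear members, were all below the 17.3%, 17.2% and 3.85% of all genes that passed in the same class. In ciliated-like cells no nuclear member had an unadjusted p under 0.05 in the falling direction, DESeq2 called 0 lower and 2 higher, and 10 had an unadjusted p under 0.05 in the rising direction. With the recipient as a block, 8 nuclear members fell in basal-like cells, where 1573 of 10984 genes fell. With scaling by library size alone 39 nuclear members rose in secretory-like cells, where 2687 of 10390 genes rose. In ciliated-like cells the number that rose changed with the library left out, by the range given below.

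**Figure D3:**
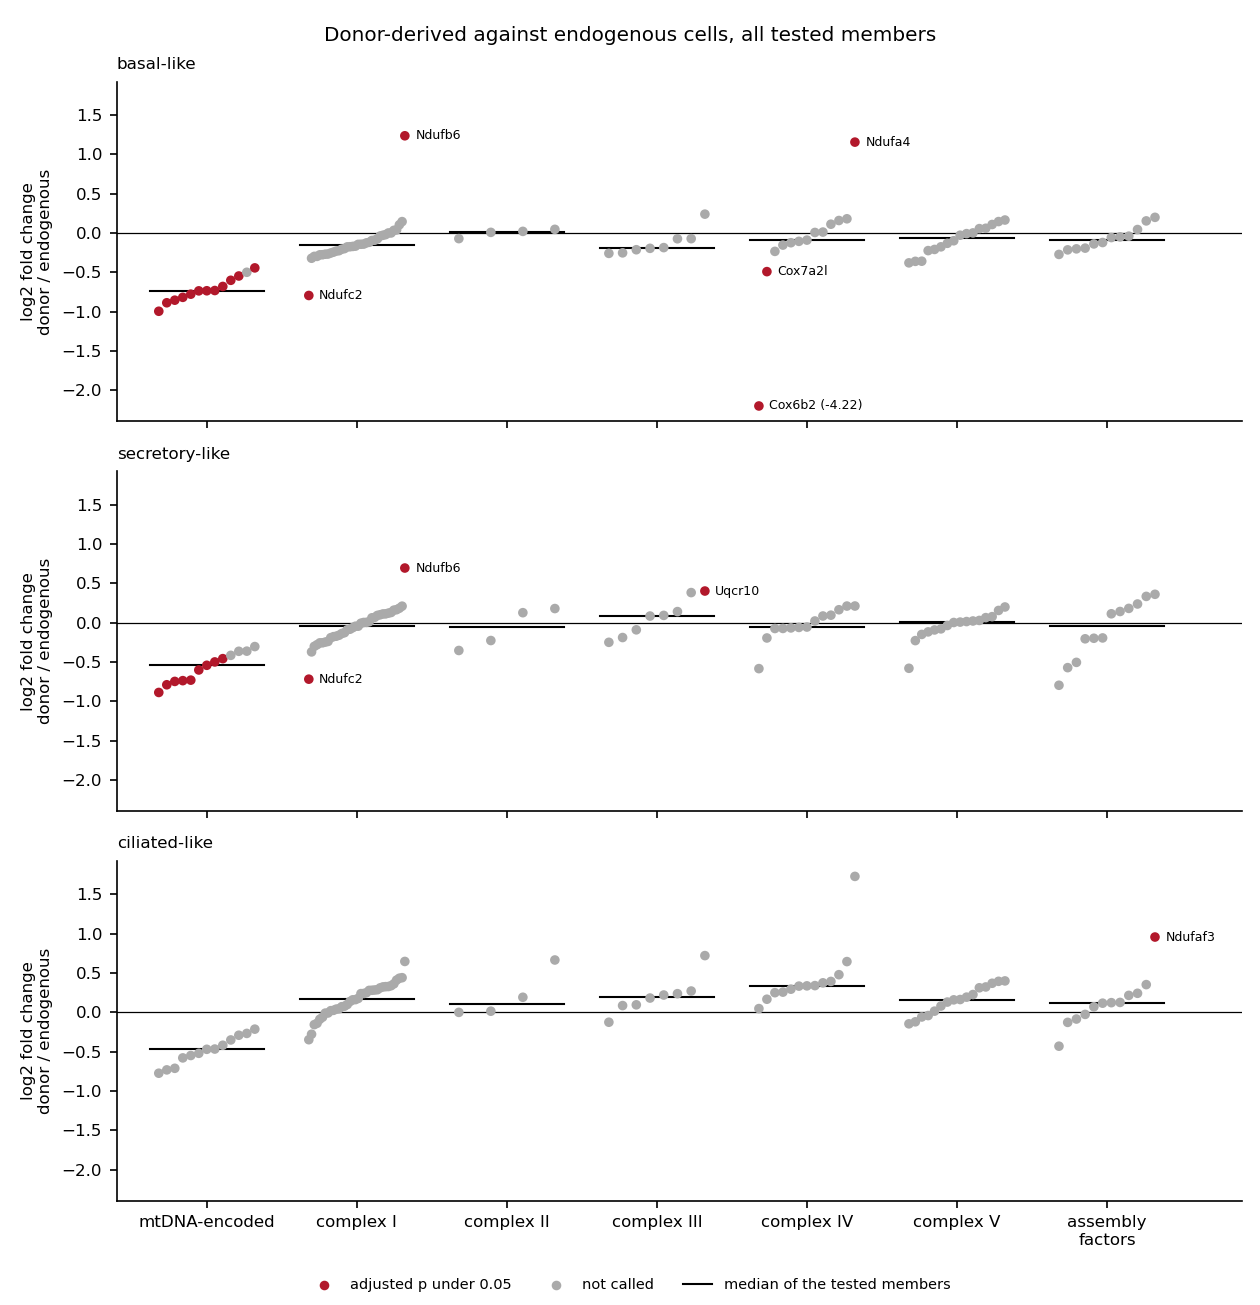
Log2 fold change, donor-derived over endogenous, of each tested member in the basal-like, secretory-like and ciliated-like classes, arranged by complex and genome. Each point is 1 gene, red points passed the adjusted threshold of 0.05, black lines are medians, and Cox6b2 in basal-like cells (-4.22) is drawn at the lower edge of the axis. The mitochondrial-encoded points sit below 0 in all 3 classes, while the nuclear-encoded medians lie at -0.12, -0.01 and 0.19.

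Within complex I, 1 nuclear subunit rose and 1 fell among the 36 tested in basal-like cells, and the same held in secretory-like cells. Ndufb6 (chr4:40270591-40279421, minus strand), an accessory subunit of the membrane arm, had 167 and 149 CPM in donor-derived basal-like cells, against 62.2 and 69.2 in endogenous cells, with 53.6 in control cells. Both donor-derived libraries were above all 3 others (1.23, SE 0.14, adjusted p = 0.000325). In secretory-like cells it had 135 and 139 CPM in donor-derived, 87.9 and 77.5 in endogenous and 73.6 in control cells (0.69, SE 0.14, adjusted p = 0.00138). In ciliated-like cells the values were 81.7 and 69.1 in donor-derived, 46.6 and 47.4 in endogenous and 54.4 in control cells, without passing (0.65, adjusted p = 0.0912). The donor-derived libraries were thus the 2 highest in each class.

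Ndufc2 (chr7:97400003-97407802, plus strand), another accessory subunit of the membrane arm, had 68.6 and 67.6 CPM in donor-derived, 113 and 118 in endogenous and 71.0 in control basal-like cells (-0.80, SE 0.12, adjusted p = 0.00216). Here the control lay with the donor-derived libraries. In secretory-like cells it had 121 and 124 CPM in donor-derived, 186 and 207 in endogenous and 181 in control cells (-0.72, SE 0.13, adjusted p = 0.000539), and there the control lay with the endogenous libraries. In ciliated-like cells it had 180 and 168 CPM in donor-derived, 180 and 184 in endogenous and 227 in control cells (-0.09, adjusted p = 0.817). The Ndufb6 and Ndufc2 calls in basal-like and secretory-like cells held in every one of the 17 and 16 settings run. Ndufa13 and Ndufa7, the complex I subunits with the highest levels in control epithelium, differed little in basal-like cells (0.10 and -0.03, adjusted p = 0.656 and 0.915).

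No subunit of complex II, which is wholly nuclear and also works in the citric acid cycle, passed in any class in the main fits. Sdha, Sdhb, Sdhc and Sdhd had log2 fold changes between -0.07 and 0.04 in basal-like cells, where none had an unadjusted p under 0.05. The lowest adjusted p were 0.0932 for Sdhd in ciliated-like cells (73.3 and 99.2 CPM in donor-derived, 52.6 and 55.6 in endogenous, 77.5 in control cells) and 0.104 for Sdhb in secretory-like cells (88.9 and 96.6 CPM in donor-derived, 125 and 106 in endogenous, 96.1 in control cells). Each of the 2 had an unadjusted p under 0.05, and DESeq2 called no complex II subunit in any class.

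In complex III, Uqcr10 (chr11:4701973-4704342, minus strand), a small subunit, was the 1 member that rose. In secretory-like cells it had 672 and 825 CPM in donor-derived, 554 and 552 in endogenous and 579 in control cells (0.40, SE 0.13, adjusted p = 0.0442). In ciliated-like cells it had 351 and 331 CPM in donor-derived, 196 and 211 in endogenous and 204 in control cells (0.72, SE 0.17, adjusted p = 0.0539), and it passed there without cluster 11. The donor-derived libraries were the highest in both classes. The secretory-like call was lost in 8 of 16 settings, with adjusted p between 0.000376 and 0.329. With the recipient as a block its adjusted p was 0.0695. Uqcrh, which hinges cytochrome c1 to cytochrome c, had 590 and 587 CPM in donor-derived, 736 and 635 in endogenous and 513 in control basal-like cells (-0.25, adjusted p = 0.232).

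In complex IV the difference between origins was called as changing with the class for Ndufa4, Cox7a2l and Cox6b2. Ndufa4 (chr6:11900292-11907497, minus strand), earlier assigned to complex I and now placed in complex IV, had 884 and 718 CPM in donor-derived, 338 and 367 in endogenous and 293 in control basal-like cells (1.15, SE 0.14, adjusted p = 0.000676). In secretory-like cells the values overlapped, with 723 and 823 CPM in donor-derived, 752 and 661 in endogenous and 742 in control cells (0.09, adjusted p = 0.716). The donor-derived basal-like level was thus near that of secretory-like cells of any origin. In ciliated-like cells Ndufa4 had 605 and 538 CPM in donor-derived, 391 and 417 in endogenous and 553 in control cells (0.48, adjusted p = 0.19). The basal-like difference exceeded the secretory-like one by a test of the interaction (-1.04, secretory-like minus basal-like, adjusted p = 0.00124). That test called 4 of 103 members tested (3 higher, 1 lower), a smaller share than the 7.22% of all 11544 genes (3.37% higher, 3.85% lower). The same test of ciliated-like against basal-like cells called 3 of 102 members, all higher, a share near the 3.09% of 12082 genes (1.66% higher, 1.42% lower).

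Cox7a2l (chr17:83501918-83517330, minus strand), known for joining complexes III and IV into supercomplexes, fell in donor-derived basal-like cells. It had 438 and 422 CPM in donor-derived, 599 and 583 in endogenous and 464 in control cells (-0.49, SE 0.12, adjusted p = 0.0205), so the control lay nearer the donor-derived libraries. The call was lost in 5 of 17 settings, with adjusted p up to 0.225. In secretory-like cells it had 347 and 316 CPM in donor-derived, 289 and 270 in endogenous and 270 in control cells (0.21, adjusted p = 0.313), and in ciliated-like cells 178 and 151 in donor-derived, 127 and 129 in endogenous and 138 in control cells (0.34, adjusted p = 0.33). Both differences from the basal-like effect passed (0.72, adjusted p = 0.00447 in secretory-like cells, and 0.81, adjusted p = 0.0472 in ciliated-like cells), but the ciliated-like one was lost in 3 of 6 settings (adjusted p between 0.0304 and 0.0995).

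Cox6b2 (chr7:4751792-4753094, minus strand), the testis paralogue of Cox6b1, was scarce. It had 6 and 3 UMIs in donor-derived, 39 and 37 in endogenous and 10 in control basal-like cells, which gave a ratio of donor-derived to endogenous of 0.0581 with a counting interval of 0.0256 to 0.116 (95%, counting error only). The fitted log2 fold change was -4.22 (SE 0.43, adjusted p = 0.000191). In secretory-like cells it had 4 and 1 UMIs in donor-derived, 15 and 9 in endogenous and 16 in control cells, a ratio of 0.189 (0.0563 to 0.505). In ciliated-like cells it had 4 and 45 UMIs in donor-derived, 25 and 11 in endogenous and 62 in control cells, a ratio of 3.84 (2.45 to 6.08), with nearly all donor-derived UMIs in the day 56 library. The interaction between ciliated-like and basal-like cells passed (5.54, adjusted p = 0.00663) and did not without cluster 11 (adjusted p = 0.0575). Its paralogue Cox6b1 had 381 and 385 CPM in donor-derived, 350 and 394 in endogenous and 288 in control basal-like cells (0.01, adjusted p = 0.976). The other paralogous subunits of complex IV tested in basal-like cells, Cox4i1, Cox6a1, Cox6c, Cox7a2, Cox7b and Cox8a, had log2 fold changes between -0.24 and 0.18 and did not pass. Cox4i2, Cox7a1 and Ndufa4l2 had too few UMIs for that test (8, 189 and 1 over all libraries).

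**Figure D4:**
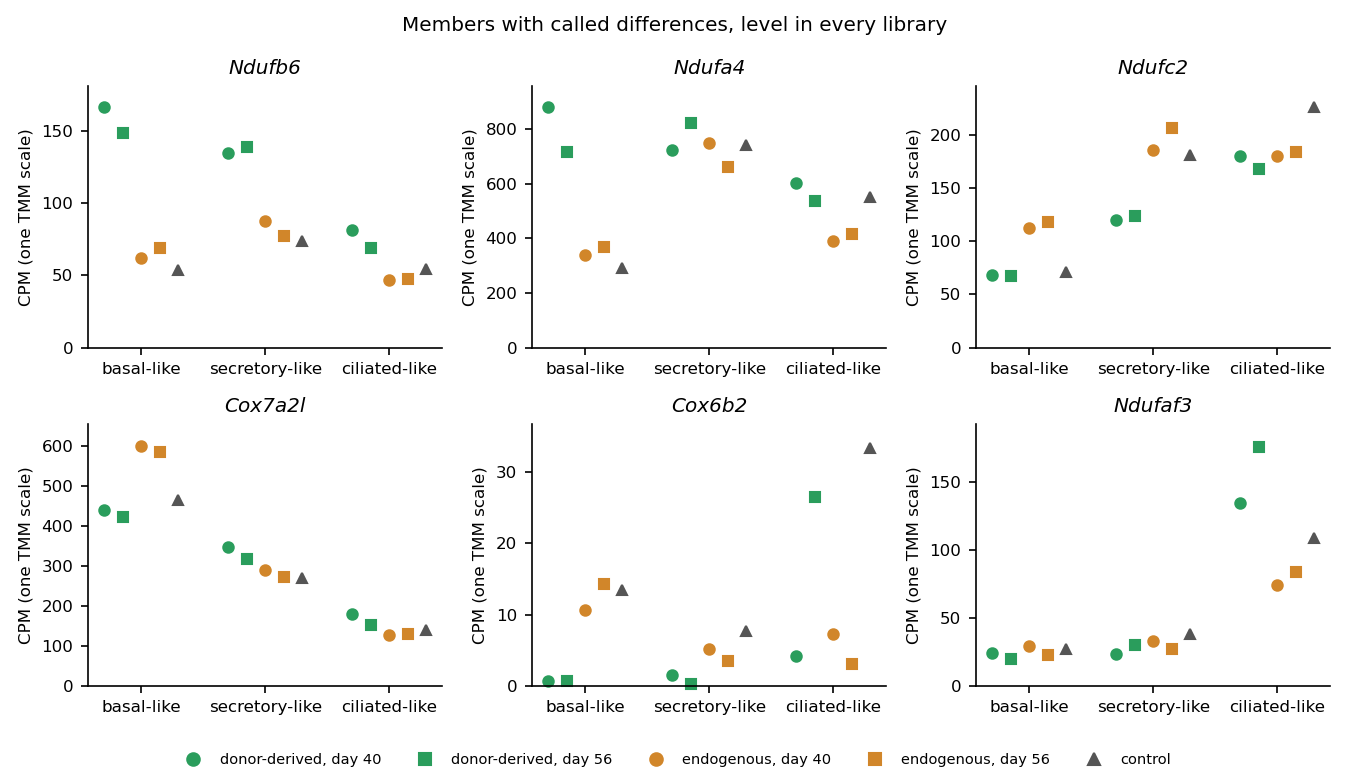
Levels (CPM on 1 TMM scale) of 6 of the 7 nuclear-encoded members that passed in at least 1 class, by library and class. Each point is 1 library. Ndufb6 is highest in the donor-derived libraries in all 3 classes, whereas Ndufa4 is raised in donor-derived basal-like cells (884 and 718 CPM, against 338 and 367 in endogenous cells) and overlaps in secretory-like cells.

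In the main fits, with TMM scaling and no recipient block, no nuclear subunit of complex V passed in any class. The 15 tested had a median log2 fold change of -0.03 in basal-like, 0.01 in secretory-like and 0.16 in ciliated-like cells. At an unadjusted p under 0.05, 2 were lower in basal-like and 2 higher in ciliated-like cells, and DESeq2 called 0. The 3 genes for the membrane ring, Atp5g1, Atp5g2 and Atp5g3, had log2 fold changes of 0.14, -0.36 and 0.16 in basal-like cells. Atp5g2 was the furthest from 0, with 506 and 426 CPM in donor-derived, 627 and 543 in endogenous and 501 in control cells (adjusted p = 0.127). With the block it passed (adjusted p = 0.0089), as did Atp5l, which also fell (-0.36, adjusted p = 0.00979).

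Among assembly factors, Ndufaf3 (chr9:108565537-108567434, minus strand), which acts early in complex I assembly, rose in ciliated-like cells. It had 134 and 175 CPM in donor-derived, 73.8 and 83.8 in endogenous and 108 in control cells (0.96, SE 0.18, adjusted p = 0.0253). In basal-like cells the values overlapped, with 24.1 and 19.6 CPM in donor-derived, 28.9 and 22.8 in endogenous and 26.8 in control cells (-0.27, adjusted p = 0.447). The difference between the classes passed (1.21, adjusted p = 0.0435), though not with DESeq2 (adjusted p = 0.358) and not in 3 of 6 settings (adjusted p between 0.0312 and 0.358). The ciliated-like call was lost without either endogenous library. Without cluster 11 the interaction of ciliated-like and basal-like cells was called for 7 members and for 519 of 11580 genes. Of the 7, 4 were mitochondrial (mt-Nd2, mt-Co2, mt-Atp6 and mt-Cytb, between 0.58 and 0.81). For these 4 the donor-derived minus endogenous difference was then higher in ciliated-like than in basal-like cells, and for mt-Co2 and mt-Cytb it was positive in ciliated-like cells.

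Endogenous cells of the transplanted tracheas were set against the single library of the uninjured control by size alone. Measured, at a mean of 50 CPM or more, were 12 mitochondrial members in basal-like, 13 in secretory-like and 12 in ciliated-like cells. None was 1.5-fold or more from the control in both endogenous libraries. mt-Nd2 and mt-Nd5 were below it in both secretory-like libraries, at the levels given above. The median log2 ratio of mitochondrial members there was -0.27 and -0.32 at day 40 and 56, against 0.002 and -0.005 over all genes. It was 0.04 and -0.10 in basal-like and 0.05 and 0.03 in ciliated-like cells (-0.26 and -0.15 without cluster 11). For nuclear members it was 0.26 and 0.30 in basal-like, -0.02 and -0.02 in secretory-like and -0.26 and -0.19 in ciliated-like cells. Among nuclear members 3 of 74 measured in basal-like cells were at least 1.5-fold higher in both endogenous libraries (Sdhb, Ndufc2 and Ndufs4), against 2.9% of 2519 genes, and 0 were lower (0.953% of genes). In secretory-like cells 0 of 75 were that far apart (2.4% of genes higher, 0.449% lower), and in ciliated-like cells 0 of 74 (2.33% higher, 0.731% lower, and without cluster 11 1.92% and 0.418%). Ndufs4, a complex I subunit that joins late in assembly, had 84.1 and 84.6 CPM in endogenous and 50.9 in control basal-like cells. The control basal-like sum rests on 69 cells, and 1 control library allows no test.

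Between epithelial types, compared within the 3 resident libraries, 50 of 103 members were higher and 5 lower in secretory-like than in basal-like cells on the TMM scale (DESeq2 35 and 3). All 13 mitochondrial members were called higher in secretory-like cells (log2 fold change 0.57 to 1.30), 37 nuclear members were higher and 5 lower, where 42.2% of 11557 genes passed (21.5% higher, 20.6% lower). With scaling by library size alone, which moved the median of all genes to -0.82, 811 of 11557 genes were higher and 7737 lower. There 2 mitochondrial members were higher and the nuclear counts turned to 1 higher and 79 lower, so the direction for most members depends on the scaling. The ratio of mitochondrial to nuclear UMIs does not, and was higher in secretory-like than in basal-like cells in all 5 libraries, by the values given above. Relative to the median of all genes, mt-Nd4l and mt-Nd5 were furthest up (1.30 and 1.25, SE 0.13 and 0.14) and mt-Co3 least (0.57).

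Of the nuclear members of at least 20 CPM, Ndufa4 was furthest up in resident secretory-like cells, with 752 and 661 CPM in endogenous and 742 in control secretory-like cells, against 338 and 367 in endogenous and 293 in control basal-like cells (1.06, SE 0.13, adjusted p = 3.74e-09). In the donor-derived libraries this difference was -0.05 (adjusted p = 0.883). The scarce complex IV paralogue Cox7a1 (mean 2.902 CPM) was further up (2.39, SE 0.55, adjusted p = 0.000316). Uqcr10, Ndufa1, Ndufc2, Ndufv3 and Ndufb7 followed (0.84, 0.83, 0.82, 0.80 and 0.74), and with library size alone Ndufa1, Ndufc2, Ndufv3 and Ndufb7 were at or below 0. Cox7a2l was furthest down, with 289 and 270 CPM in endogenous and 270 in control secretory-like cells, against 599 and 583 in endogenous and 464 in control basal-like cells (-1.03, SE 0.12, adjusted p = 3.35e-10). The complex III core subunit Uqcrc1, the complex I subunit Ndufa10 and Atp5g2 of the complex V ring were also lower (-0.53, -0.33 and -0.33).

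Ciliated-like cells differed from basal-like cells member by member. Of 90 nuclear members tested 23 were higher and 34 lower, where 63.8% of 11557 genes passed (33.3% higher, 30.5% lower). This share of the nuclear members, 63.3%, was close to that background. By complex, complex I had 12 higher and 13 lower, complex III 1 and 5, complex IV 2 and 3, and complex V 0 and 9. For complex V in the rising direction, 0 of 15 had an unadjusted p under 0.05 and DESeq2 called 0. Among nuclear members of at least 20 CPM, Ndufaf3 was furthest up, with 73.8 and 83.8 CPM in endogenous and 108 in control ciliated-like cells, against 28.9 and 22.8 in endogenous and 26.8 in control basal-like cells (1.73, SE 0.14, adjusted p = 6.83e-15). Ndufc2, Ndufb7, Ndufs4, Ndufab1 and Sdhaf4 followed (0.95, 0.89, 0.78, 0.71 and 0.71), of which Ndufab1 is the mitochondrial acyl carrier protein and Sdhaf4 an assembly factor of complex II.

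Cox7a2l was furthest down, with 127 and 129 CPM in endogenous and 138 in control ciliated-like cells, against 599 and 583 in endogenous and 464 in control basal-like cells (-2.01, SE 0.12, adjusted p = 1.1e-19). Ndufa5, Ndufaf4, Ndufa10 and Atp5g2 were also lower (-1.26, -1.18, -1.01 and -0.93). All 11 of these changes kept their direction in the donor-derived libraries alone, where Ndufaf3 was 2.84 higher and Cox7a2l -1.35. Ndufa4 did not: it was 0.47 higher in resident ciliated-like than basal-like cells and -0.44 (adjusted p = 0.0486) in the donor-derived libraries.

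Of the 13 mitochondrial members, 5 were higher and 1 lower in this comparison, and DESeq2 called 5 higher and 0 lower. Of all genes 33.3% were higher and 30.5% lower, so the rising members were near that background. The complex I subunits mt-Nd4l, mt-Nd4, mt-Nd5 and mt-Nd2 and the complex IV subunit mt-Co1 were higher in ciliated-like cells (0.76, 0.51, 0.46, 0.41 and 0.36). The 1 lower was mt-Nd6, whose counts are uncertain as said above (-0.42, SE 0.16, adjusted p = 0.0163 with edgeR). Without cluster 11, 3 mitochondrial members were higher and 4 lower, and 31 nuclear members were higher and 23 lower. Of the mitochondrial members, mt-Nd4l had 487 and 527 CPM in endogenous and 502 in control ciliated-like cells, against 304 and 321 in endogenous and 301 in control basal-like cells (SE 0.13, adjusted p = 2.17e-06).

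**Figure D5:**
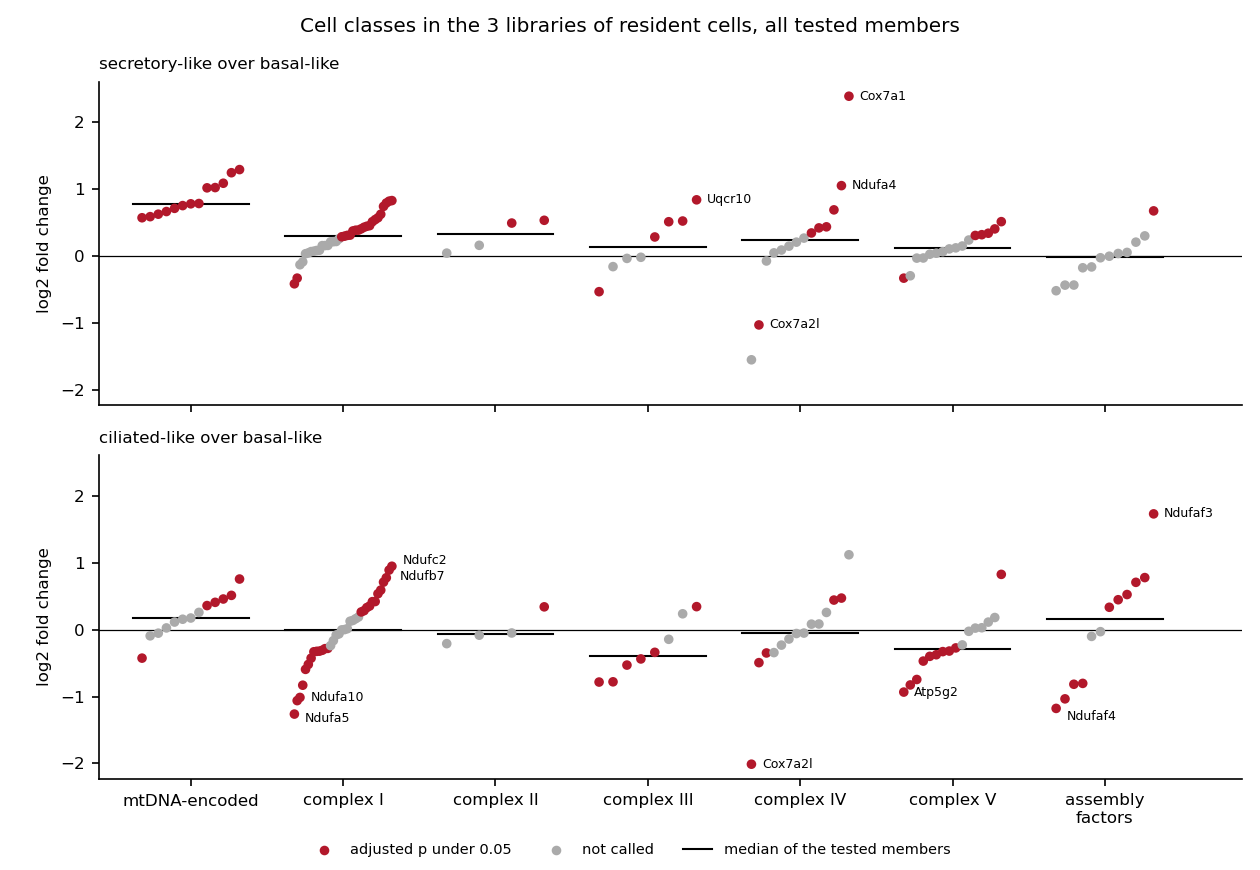
Log2 fold change of each tested member in secretory-like over basal-like and in ciliated-like over basal-like cells of the 3 resident libraries, arranged by complex and genome. Each point is 1 gene, red points passed the adjusted threshold of 0.05, black lines are medians, and Atp5s stands with complex V. All mitochondrial-encoded points lie above 0 in secretory-like cells (0.57 to 1.30), and Cox7a2l is far below 0 in both panels (-1.03 and -2.01).

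In the other mitochondrial gene lists few genes passed between origins. In basal-like cells 0 of 23 genes for mitochondrial DNA expression and 0 of 34 other assembly factors passed edgeR's adjusted threshold (0 and 1 at an unadjusted p under 0.05, DESeq2 0 and 0), and 2 of 77 mitochondrial ribosomal proteins rose and 1 fell. The list medians were -0.06, -0.13 and 0.03 on the log2 scale, against 0.01 over all genes. In secretory-like cells the same lists had 1 of 22 lower, 0 of 34 (0 unadjusted, DESeq2 0) and 1 of 77 in each direction. Lrpprc, which stabilises mitochondrial messages, was the 1 gene of the expression list that passed, with 13.3 and 19.1 CPM in donor-derived, 28.4 and 28.7 in endogenous and 23.9 in control secretory-like cells (-0.82, SE 0.23, adjusted p = 0.0168, with DESeq2 0.17). In ciliated-like cells Sco2, a copper chaperone of complex IV assembly, was the 1 other assembly factor of 33 that fell (-0.91, SE 0.21, adjusted p = 0.0453, with DESeq2 0.195). Of the mitochondrial carriers, import and cristae proteins, 1 of 22 rose in basal-like cells and 1 of 23 in secretory-like cells, and 0 of 22 passed in ciliated-like cells (2 at an unadjusted p under 0.05, DESeq2 0). Apoo, a protein of the cristae junctions, had 23.6 and 25.3 CPM in donor-derived, 10.6 and 11.2 in endogenous and 8.04 in control basal-like cells (1.13, SE 0.21, adjusted p = 0.00548). Slc25a4, an ADP/ATP carrier, had 191 and 180.0 CPM in donor-derived, 151 and 117 in endogenous and 122 in control secretory-like cells (0.43, SE 0.14, adjusted p = 0.0428, with DESeq2 0.26). With the recipient as a block 1694 of 10984 genes were higher and 1573 lower in basal-like cells. The list counts were then 5 higher and 3 lower for glycolysis, 2 lower for the citric acid cycle and 2 higher for the regulators. They were 1 higher and 3 lower for the electron carriers, 2 lower for other assembly factors, 3 higher for carriers, import and cristae, and 4 higher and 2 lower for ribosomal proteins.

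Of the regulators of mitochondrial biogenesis, 1 of 9 rose in basal-like cells: Esrra, an orphan nuclear receptor that drives respiratory genes, had 23.4 and 24.8 CPM in donor-derived, 13.6 and 9.28 in endogenous and 14.7 in control cells (1.01, SE 0.23, adjusted p = 0.0164, with DESeq2 0.059). The share of all genes called higher there was 8.6%. Glycolysis had 4 of 17 genes higher and 1 lower in basal-like, 2 and 1 of 17 in secretory-like, and 1 and 1 of 16 in ciliated-like cells. The shares of all genes called higher and lower were 8.6% and 8.74% in basal-like, 7.5% and 9.75% in secretory-like, and 1.92% and 1.93% in ciliated-like cells. DESeq2 called 4 glycolysis genes higher and 1 lower in basal-like, 1 and 1 in secretory-like, and 1 and 0 in ciliated-like cells. Aldoc, an aldolase, fell furthest in secretory-like cells, with 17.0 and 10.2 CPM in donor-derived, 51.9 and 51.9 in endogenous and 55.0 in control cells (-2.03, SE 0.23, adjusted p = 5.28e-06). Ldhb, the lactate dehydrogenase subunit known for turning lactate to pyruvate, rose in each class. It had 76.0 and 70.9 CPM in donor-derived, 32.2 and 38.6 in endogenous and 41.5 in control basal-like cells (1.03, SE 0.16). It had 268 and 306 CPM in donor-derived, 126 and 129 in endogenous and 152 in control secretory-like cells (1.14, SE 0.13), and 176 and 315 in donor-derived, 68.6 and 60.8 in endogenous and 114 in control ciliated-like cells (1.91, SE 0.26). Both donor-derived libraries were the highest of the 5 in every class. The citric acid cycle list had 0 of 18 higher and 1 lower in basal-like cells, 2 and 2 in secretory-like cells and 0 of 18 in ciliated-like cells (4 at an unadjusted p under 0.05, DESeq2 0). Pcx had the largest called change of this list in secretory-like cells and rose (0.86, SE 0.17, adjusted p = 0.00132, with DESeq2 0.0121). Fh1 also rose there (0.47, adjusted p = 0.0497, with DESeq2 0.344), and Suclg1 fell (-0.38, adjusted p = 0.0499, with DESeq2 0.294). Pdha1, a subunit of pyruvate dehydrogenase, fell in basal-like and secretory-like cells (-0.47 and -0.51, adjusted p = 0.0344 and 0.02), with DESeq2 adjusted p of 0.147 and 0.187. Electron carriers and coenzyme Q genes had 2 of 20 lower in basal-like cells (Coq9 and Gpd2, -0.91 and -0.81) and 1 of 19 higher in secretory-like cells (Coq8b, 0.71). DESeq2 called Gpd2 but neither Coq9 (adjusted p = 0.108) nor Coq8b (adjusted p = 0.207).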

How the data were processed

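Single cells of 5 libraries were profiled by droplet RNA sequencing (10x Chromium, polyA RNA). Per the file headers, the deposited matrices give UMI counts for every gene in every barcode, all whole numbers, on a combined human and mouse reference. The submitters' processing notes name Seurat, STARsolo and Cell Ranger and the genome builds GRCh38 and GRCm38, with no versions or roles. The sources used here do not say how barcodes were called. The members and gene lists were chosen with earlier results of these data known.

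Barcodes over 10% human UMIs (192), with over 20% mitochondrial UMIs or under 500 genes (38), and doublets (48, 0.727%), were left out. Counts scaled to 10000 per cell were clustered (2000 variable genes without the members, 30 components, 15 neighbours, Leiden resolution 1.0, seed 1), giving 24 clusters. A cluster was named for its highest-scoring type if at least 3 markers of that type were detected, each in at least 25% of its cells. No other type could have more markers among the 10 leading genes of the cluster. The UMI counts of each class with at least 20 cells in a library were added up and tested with edgeR's quasi-likelihood test (TMM, filterByExpr, Benjamini-Hochberg, threshold 0.05): donor-derived against endogenous within a class, the interaction of origin and class, and types within the resident libraries with library as a block. Labels give the group and the day but no recipient, and the design text gives 1 recipient per day, so same-day libraries are paired. Deviations of same-day libraries correlated at 0.292, 0.113 and -0.035 in the basal-like, secretory-like and ciliated-like classes. The main fits leave the pairing out. The scripts were tested on simulated data. Intervals cover counting error only, and 10x reads were already collapsed to UMIs.

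Genes named are all mitochondrial members, the called nuclear members with the largest changes at 20 CPM or more (up to 8 per direction and class, 6 per type comparison), the Sdh subunits, paralogous subunits, the 2 of each complex highest in control epithelium and up to 4 called genes of each other list. A gene that this rule names is not reported here. Alternatives were library-size scaling, DESeq2, no low-count filter, the recipient block, leaving out each library, clustering resolution 0.5 and 2.0, other mitochondrial limits, cells thinned to 5000 UMIs, and, chosen after seeing the data, leaving out cluster 11 and joining cluster 0. Analyses ran in R 4.3.3 (edgeR 4.0.16, DESeq2 1.42.0, limma 3.58.1) and Python 3.11.15 (pandas 2.3.3, scipy 1.17.1, numpy 2.4.6, leidenalg 0.10.2, scanpy 1.11.5, scikit-learn 1.9.0, matplotlib 3.10.9, anndata 0.12.19).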

Additional observations from a re-analysis of the deposited data

Results flagged for a closer look

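For 6 members the difference between donor-derived and endogenous cells itself differed between epithelial types, by edgeR's quasi-likelihood test of the interaction with Benjamini-Hochberg adjustment over all genes. Against basal-like cells, 4 of 103 members and 7.22% of 11544 genes passed for secretory-like cells. For ciliated-like cells 3 of 102 members and 3.09% of 12082 genes passed. Members thus passed no more often than genes at large. Values are the difference in the class named minus that in basal-like cells, on the log2 scale.

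Ndufa4 had -1.04 in secretory-like cells (adjusted p = 0.00124), since it was raised in both donor-derived basal-like libraries and overlapped in secretory-like cells. Cox7a2l had 0.72 in secretory-like (adjusted p = 0.00447) and 0.81 in ciliated-like cells (adjusted p = 0.0472), the ciliated-like one lost in 3 of 6 settings (adjusted p up to 0.0995). Uqcrfs1, the iron-sulfur subunit of complex III, had 0.66 in secretory-like cells (adjusted p = 0.0114). Its levels were 137 and 132 CPM in donor-derived, 102 and 98.8 in endogenous and 127 in control secretory-like cells, and 93.7 and 90.0 in donor-derived, 115 and 100.3 in endogenous and 100.4 in control basal-like cells. Ndufa6, an accessory subunit of complex I, had 0.47 in secretory-like cells (adjusted p = 0.0499). Its levels were 279 and 241 CPM in donor-derived, 231 and 224 in endogenous and 211 in control secretory-like cells, and 217 and 195 in donor-derived, 246 and 249 in endogenous and 206 in control basal-like cells. Neither Uqcrfs1 nor Ndufa6 passed within a class, except Ndufa6 in basal-like cells with the recipient as a block (adjusted p = 0.0385), and DESeq2 gave the interaction an adjusted p of 0.294 for Uqcrfs1 and 0.392 for Ndufa6 (ranges over the settings 0.00174 to 0.294 and 0.012 to 0.392).

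Cox6b2 had 5.54 in ciliated-like cells (adjusted p = 0.00663), from the UMI counts given above. Of its 49 donor-derived ciliated-like UMIs, 45 came from the day 56 library. Ndufaf3 had 1.21 in ciliated-like cells (adjusted p = 0.0435).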

How the results depend on the processing

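With 2 libraries per group, leaving out 1 library moves most counts. Genes passing in basal-like cells (main 1905) ranged between 896 and 2519 over the libraries left out, in secretory-like cells (1792) between 1060 and 2111, and in ciliated-like cells (405) between 50 and 2109. Mitochondrial members that fell ranged between 4 and 12 in basal-like (12), 2 and 12 in secretory-like (9) and 0 and 12 in ciliated-like cells (0). Nuclear members that rose ranged between 1 and 2 in secretory-like (2) and 0 and 25 in ciliated-like cells (1), and those that fell between 2 and 5 in basal-like (3), 1 and 4 in secretory-like (1) and 0 and 1 in ciliated-like cells (0). In ciliated-like against basal-like cells, mitochondrial members that were higher (5) ranged between 1 and 7 and nuclear ones that were lower (34) between 15 and 44. In secretory-like against basal-like cells nuclear members that were higher (37) ranged between 24 and 36 and lower (5) between 2 and 8.

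With the recipient as a replicate block, 3267 genes passed in basal-like cells, 8 nuclear members fell there and 1 rose in secretory-like cells. With library size alone, 3316 genes passed in secretory-like cells, 4 mitochondrial members fell and 39 nuclear members rose. In ciliated-like cells 2 nuclear members then rose. Under the same scaling secretory-like against basal-like cells gave 8548 genes, 2 mitochondrial and 1 nuclear members higher and 79 nuclear lower, and the secretory-like interaction was called for 11 members. DESeq2 called 1095 genes and 1 nuclear member higher in secretory-like cells. In ciliated-like cells it called 2 mitochondrial members lower and 2 nuclear higher. Between types it called 17 nuclear members lower in ciliated-like cells, and 3166 genes, 23 nuclear higher and 3 lower in secretory-like cells. For the interactions it called 252 genes and 2 members (secretory-like) and 188 genes (ciliated-like). With no low-count filter, 2 nuclear members fell in secretory-like cells, and 791 genes, 3 mitochondrial members lower and 3 nuclear higher passed in ciliated-like cells. At resolution 2.0 and with either other mitochondrial limit, 1 nuclear member rose and 2 fell in secretory-like cells, and at resolution 0.5, 2 fell. At resolution 0.5 and at the 10% limit 3 mitochondrial members were higher in ciliated-like than basal-like cells. The secretory-like interaction was called for 7 members at resolution 0.5, and the ciliated-like one for 1 at either resolution. Without cluster 11 it was called for 7 members, 2 nuclear members rose in ciliated-like cells, and 3 mitochondrial members were higher than in basal-like cells. The donor-derived libraries alone gave 15 nuclear members lower in ciliated-like cells, and 2953 genes, 15 nuclear members higher and 1 lower in secretory-like cells.

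The donor-derived minus endogenous ratio of the genomes kept its sign in every setting run. In secretory-like cells (-1.21) it was -0.756 at the 10% limit, -1.41 at resolution 2.0, -0.849 as a median over cells and -1.86 when thinned. In ciliated-like cells (-1.42) it was -0.700 at the 10% limit, -1.14 as a median, -2.38 thinned and -0.371 without cluster 11. The thinned values weigh every cell alike, so they differ from the main ones in weighting and do not test an effect of depth. The causes were not tested.

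Reversed signs were few between origins: mt-Nd6 in secretory-like cells with library size alone (0.041), and in ciliated-like cells without cluster 11 mt-Co2 (0.0452), mt-Nd6 (0.27) and mt-Cytb (0.10). mt-Cytb also reversed without the donor-derived day 40 library (0.0145; the other libraries left out gave values down to -0.51) and at the 10% limit (0.0194). In the donor-derived libraries Ndufa4 reversed in ciliated-like (-0.44) and secretory-like cells (-0.047) against basal-like cells. With library size alone, secretory-like against basal-like cells reversed for Atp5e (-0.50), Atp5j (-0.43), Ndufa1 (-0.0002), Ndufa7 (-0.26), Ndufa13 (-0.21), Ndufb7 (-0.0892), Ndufc2 (-0.0030), Ndufv3 (-0.0295), Sdha (-0.29), Sdhb (-0.33), Uqcr11 (-0.31), Cox6a1 (-0.14), Cox7b (-0.41), Cox8a (-0.49), mt-Nd1 (-0.18), mt-Co1 (-0.13), mt-Co2 (-0.0634), mt-Co3 (-0.27), mt-Atp6 (-0.22), mt-Atp8 (-0.0552), mt-Nd6 (-0.23) and mt-Cytb (-0.0886).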

Other observations

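Cox6a2, the heart and skeletal muscle paralogue of Cox6a1, was nearly confined to 1 unnamed non-epithelial cluster led by genes such as Siglech (98 cells, 97 of them endogenous). It was seen after clustering, so it is given as a description. Over that cluster it had 716 CPM. In the endogenous libraries 48 of 61 cells at day 40 (78.7%, exact 95% interval 66.3 to 88.1%) and 28 of 36 at day 56 (77.8%, 60.8 to 89.9%) held at least 1 UMI. Among all other cells of the same libraries the shares were 4 of 1239 (0.323%) and 7 of 1183 (0.592%), with median depths of 7621 and 7829 UMIs in the cluster and 11526 and 11923 elsewhere. The donor-derived libraries held 1 cell of the cluster and the control 0.

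Cox6b2 was spread more widely at a low level, with 66 UMIs in the proliferating-like cluster (30.4 CPM), 46 in the donor-derived ciliated-like cluster 15 (26.2 CPM) and 89 in the resident ciliated-like cluster 6 (16.1 CPM), against 5 in the donor-derived basal-like cluster 5 (0.989 CPM) and 0 in cluster 9. Cluster 9 held 3422871 UMIs, and a count of 0 allows up to 3 UMIs there (one-sided 95% limit, counting error only).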
